A study of Caenorhabditis elegans with 8 samples.

Results

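Messenger RNA of 10 genes for fatty acid desaturases and elongases was described in whole hermaphrodites of the wild-type Caenorhabditis elegans strain N2. The genes were the 7 desaturase genes fat-1 to fat-7 and the elongase genes elo-1, elo-2 and elo-5, taken by their WormBase symbols from a count table of 46748 gene identifiers. All 10 were found, and all passed the filter on low counts that left 14449 genes for testing. The 8 libraries formed 4 groups of 2: N2 worms aged 1 day in water, N2 worms aged 1 day in arsenite, N2 worms aged 5 days in water, and N2 worms aged 5 days in arsenite. The labels give 100 nM for arsenite and, equally, for water. The descriptions of the 1-day libraries also carry 24 h, and the length of exposure is not stated. The 5-day libraries carry the numbers 23 to 26 and the 1-day libraries the numbers 31 to 34, and age and these blocks of library numbers therefore cannot be told apart. No label states whether the paired libraries of a group were grown as separate cultures. P-values then measure the spread among these libraries alone, and that spread may be technical.

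C. elegans makes its polyunsaturated fatty acids without any supply from the diet. Desaturases place double bonds in a fatty acid chain, elongases lengthen it, and the enzymes act in sequence, from saturated fatty acids through oleic and linoleic acid to arachidonic and eicosapentaenoic acid. A separate branch makes monomethyl branched-chain fatty acids. The intestine is the main site of fat synthesis and storage in this animal, and the products go into membranes, stored fat and the lipids carried to oocytes.

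The libraries held 21598326 to 27317490 counts each. On the second principal component of log2 CPM (2.91% of the variance, after 89.6% on the first, which parted the ages) the 5-day libraries numbered 23 and 24 lay below 0 and those numbered 25 and 26 above, with the 1-day libraries between them, and counts of called genes were therefore repeated without each of these pairs. Summed levels, as depth-scaled counts (CPM, with TMM factors), of 14 tested intestine markers were 3887 to 4232 in the 1-day libraries and 1362 to 1568 in the 5-day libraries. No marker of intestine, epidermis, muscle, germline or neurons was at 0 throughout a group. In water at 5 days 11 of the 14 were called lower than at 1 day, among them nhx-2 (log2 fold change -2.95), pho-1 (-2.31) and vha-6 (-2.03), and mtl-2 alone was called higher (2.39). Summed levels of 11 muscle markers were 7247 to 7608 at 1 day and 2288 to 2590 at 5 days, with 11 of 11 lower in water. Summed levels of 11 epidermis markers were 638 to 708 and 152 to 219, with 5 lower and 3 higher in water. Those of 13 germline and oocyte markers were 9877 to 10463 and 10000 to 10211, with 6 higher and 3 lower. Sperm markers summed to 12.2 to 13.5 at 1 day and 4.77 to 6.29 at 5 days (5 of 8 lower), embryo markers to 176 to 192 and 132 to 143 (5 of 9 lower, 1 higher), and neuron markers to 322 to 345 and 444 to 507 (4 of 12 higher, 2 lower). In arsenite the counts of markers higher and lower were 1 and 12 of 14 for intestine, 0 and 11 of 11 for muscle, 3 and 5 of 11 for epidermis and 5 and 2 of 13 for germline and oocytes. They were 0 and 5 of 8 for sperm, 2 and 6 of 9 for embryo and 1 and 3 of 12 for neurons. Over all tested genes 30.1% were called higher and 30% lower in water, and 30.3% and 29.4% in arsenite. In whole worms fewer cells of a type and less RNA per cell cannot be told apart, and the part of these shifts in the results for the desaturase and elongase genes was not tested.

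Between 1 and 5 days the pathway genes moved in opposite directions. The linoleic acid step, fat-2, rose most, fat-3 rose less far, and fat-6 and fat-1 rose slightly. The stearoyl desaturase gene fat-7 and all 3 elongase genes fell with TMM scaling. Scaling on intestine markers raised the median log2 fold change of all genes to 1.01 in water and 1.05 in arsenite. That scale turned elo-1 and elo-2 to higher and left elo-5 uncalled. In water 8 of the 10 genes were called by edgeR's quasi-likelihood test (Benjamini-Hochberg adjusted p under 0.05 over all 14449 genes), where 60.1% of all tested genes did so. Of the 10, 4 were called higher and 4 lower, beside 30.1% and 30% of all genes. In arsenite 8 of 10 passed, beside 59.6% of all genes, again with 4 higher (30.3% of all genes) and 4 lower (29.4%). With only 10 genes, these shares were not far from the background. The 8 genes were the same in both treatments and had the same directions. The libraries of the 2 ages did not overlap for 9 of the 10 genes in water and for 10 of 10 in arsenite, beside 79.0% and 81.0% of all tested genes. The count of calls was 8 in each treatment without libraries 23 and 24, and 10 in water and 7 in arsenite without libraries 25 and 26.

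**Figure D1:**
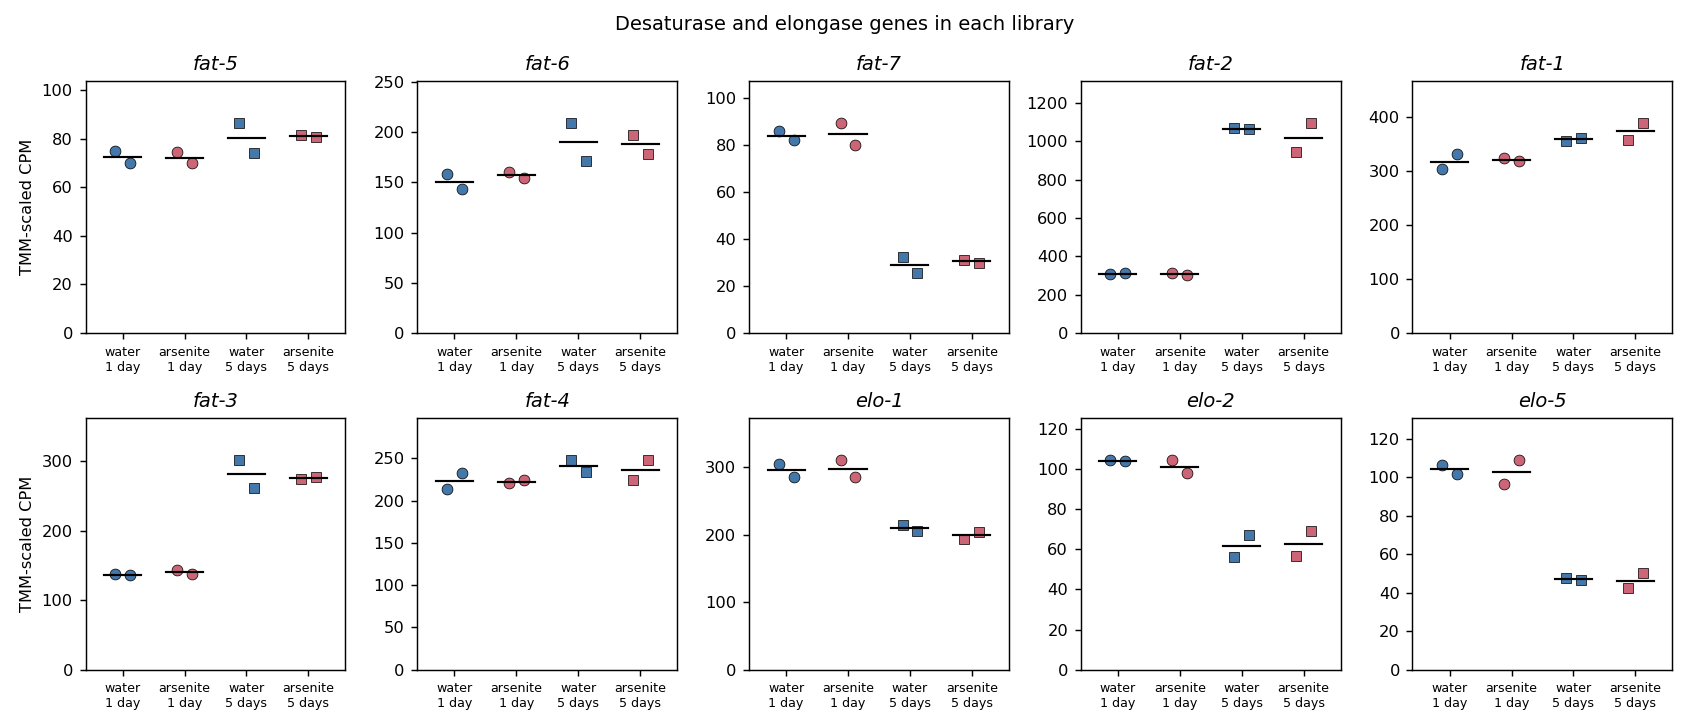
TMM-scaled CPM of each desaturase and elongase gene (vertical axis, from 0, scaled per gene) in each library (points), with the mean of each group of 2 libraries as a bar. The 4 libraries of 5 days lie between 944 and 1095 CPM for fat-2 and between 25.6 and 32.2 CPM for fat-7, against 300.4 to 314 and 80.2 to 89.5 CPM at 1 day, while water (blue) and arsenite (red) points of the same age lie side by side.

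The first desaturation step is carried by 3 genes. FAT-5 acts mainly on palmitic acid, and FAT-6 and FAT-7 are close paralogs that turn stearic acid into oleic acid. The gene fat-5 lies on chromosome V at 17725004 to 17726818, fat-6 on chromosome IV at 11913692 to 11915687 and fat-7 on chromosome V at 7151353 to 7153146 (build WBcel235, plus, minus and minus strand). How the authors' counting treated reads that map to both fat-6 and fat-7 is not given in the sources used here, so the division of counts between them is uncertain. The counts of fat-7 ran from 596 to 2293 per library and those of fat-6 from 3744 to 5016.

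The level of fat-7 was 86.0 and 82.1 CPM in water at 1 day and 32.2 and 25.6 CPM in water at 5 days. In arsenite it was 89.5 and 80.2 CPM at 1 day and 31.2 and 29.8 CPM at 5 days. Every 5-day library lay below every 1-day library, and the water and arsenite libraries of each age overlapped. The log2 fold change from 1 to 5 days was -1.54 in water (SE 0.091, adjusted p = 1.4e-11), a level 2.91-fold lower, and -1.47 in arsenite (SE 0.090, adjusted p = 2.6e-11).

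Its paralog fat-6 did not follow. The level of fat-6 was 158 and 143 CPM in water at 1 day and 209 and 172 CPM at 5 days. The arsenite libraries held 160.1 and 155 CPM at 1 day and 197 and 179 CPM at 5 days. The 5-day libraries were the higher ones in both treatments, without overlap between the ages, but the 5-day replicates in water differed from each other by more than the 1-day replicates did. The log2 fold change was 0.34 in water (SE 0.087, adjusted p = 0.0048) and 0.26 in arsenite (SE 0.087, adjusted p = 0.022). The call was lost in water without water replicate 2 at 1 day (0.26, adjusted p = 0.0555). In arsenite it was lost without replicate 1 or 2 of arsenite at 1 day (adjusted p = 0.0594 and 0.118) or replicate 1 of arsenite at 5 days (0.17, adjusted p = 0.168).

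The palmitoyl desaturase gene fat-5 stood at 74.8 and 69.8 CPM in water at 1 day and at 86.4 and 74.1 CPM at 5 days. In arsenite it stood at 74.3 and 69.9 CPM at 1 day and at 81.3 and 80.7 CPM at 5 days. The water libraries of the 2 ages overlapped and the arsenite libraries did not. Neither difference passed the edgeR test, at 0.15 in water (SE 0.073, adjusted p = 0.0792) and 0.17 in arsenite (SE 0.073, adjusted p = 0.0518). Without water replicate 2 at 5 days fat-5 was called in water (0.26, adjusted p = 0.00503), and without either water library of 5 days it was called in arsenite (adjusted p = 0.0323 and 0.0308). In a fit blocked on adjacent library numbers, fat-5 was called in both treatments (adjusted p = 0.0354 in water and 0.0178 in arsenite). A short stretch of 28 exonic bases of fat-5 overlaps twk-42 on the opposite strand, a gene with 42 to 151 counts per library.

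With TMM scaling the summed level of the 3 genes differed between ages by less than the spread between replicates in water, while its composition changed. Scaled on the intestine markers instead, fat-5 (1.15 in water and 1.21 in arsenite) and fat-6 (1.34 and 1.30) were higher at 5 days and fat-7 alone was lower. That scale moved the median log2 fold change of all genes to 1.01 in water and 1.05 in arsenite, near the values of fat-5. It had 76.1% and 76.7% of all genes called higher. Ratios of genes within a library, and sums given in CPM, were not corrected for gene length. Shares and the order of different genes were taken from CPM per kilobase of exon. On that scale the sum of fat-5, fat-6 and fat-7 was 269 ± 14.8 (SD, n = 2) in water at 1 day and 262 ± 34.8 in water at 5 days, and 276 ± 11.9 and 262 ± 12.7 in arsenite. The share of fat-7 in that sum was 27.7% ± 0.610 in water at 1 day and 9.79% ± 0.297 at 5 days, and that of fat-6 was 48.0% ± 0.764 and 62.4% ± 0.383. In arsenite the share of fat-7 was 27.3% ± 0.931 and 10.4% ± 0.179.

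The ratio of fat-7 to fat-6 within a library needs no scaling between libraries. Its log2 value lay between -0.95 and -0.80 in the 4 libraries of 1 day and between -2.75 and -2.58 in the 4 of 5 days. The mean difference was -1.80 (exact two-sided permutation test over 4 against 4 libraries, p = 0.0286, the smallest that the 70 arrangements allow; 0.0357 adjusted over 5 ratios). The log2 ratio of fat-5 to fat-6 differed by -0.14, with the same exact p of 0.0286 and adjusted p of 0.0357. For that pair the ages nearly touched, with -1.1457 to -1.036 at 1 day and -1.280 to -1.1461 at 5 days. The exact p does not reflect the size of the gap. Libraries of both treatments were pooled in these tests, and the difference in the ratio of fat-7 to fat-6 was -1.88 in water and -1.73 in arsenite. The 2 ages remain tied to the 2 blocks of library numbers.

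**Figure D2:**
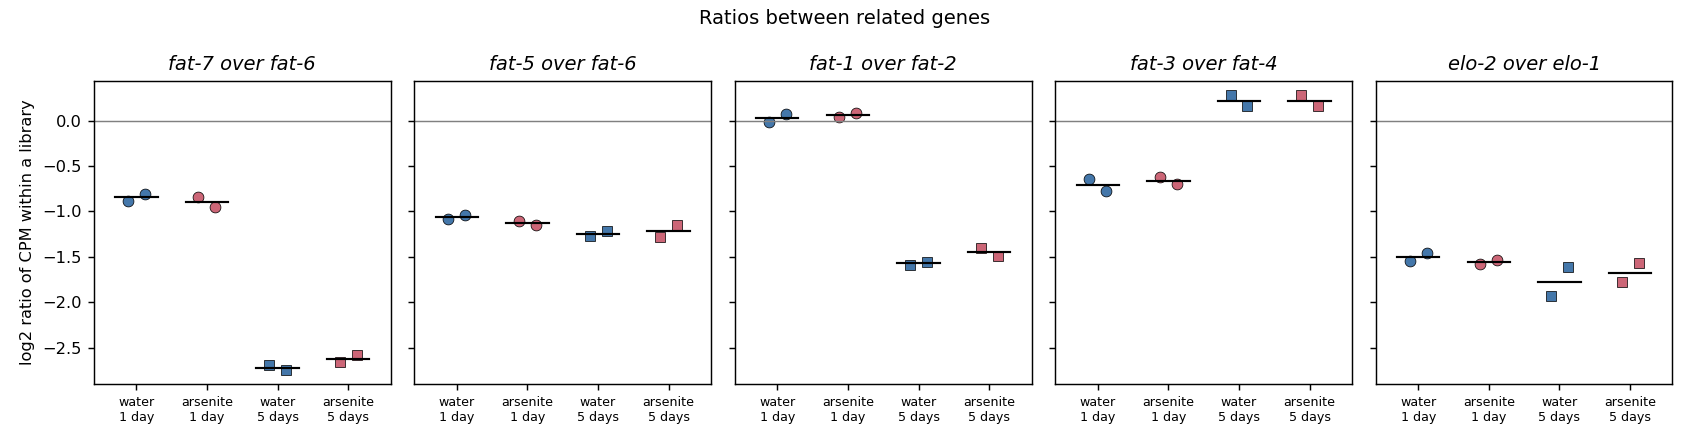
Log2 ratio of the CPM of related genes (vertical axis) within each library (points, blue for water and red for arsenite), with group means as bars and the grey line at equal CPM. The ratio of fat-7 to fat-6 falls from above -1 at 1 day to below -2.5 at 5 days, fat-3 to fat-4 passes from below to above 0, and the elo-2 to elo-1 points overlap between ages.

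The next steps belong to FAT-2, which makes linoleic acid from oleic acid, and FAT-1, which turns omega-6 into omega-3 fatty acids. Their genes lie in tandem on the plus strand of chromosome IV, fat-1 at 13315644 to 13318811 and fat-2 at 13323873 to 13326395, with 5061 bases between them. The level of fat-2 was 305 and 314 CPM in water at 1 day and 1067 and 1062 CPM in water at 5 days. With arsenite the values were 314 and 300.4 CPM at 1 day and 944 and 1095 CPM at 5 days. The ages were far apart in both treatments, and the lowest and the highest of the 4 libraries of 5 days were both arsenite. The log2 fold change was 1.78 in water (SE 0.067, adjusted p = 2.0e-16), a 3.44-fold rise, and 1.73 in arsenite (SE 0.067, adjusted p = 3.3e-16).

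The neighbouring gene fat-1 was at 303 and 331 CPM in water at 1 day and at 355 and 361 CPM at 5 days. In arsenite it was at 323 and 318 CPM at 1 day and at 358 and 388 CPM at 5 days. All 5-day libraries lay above all 1-day libraries, by a small margin. Its log2 fold change was 0.18 in water (SE 0.060, adjusted p = 0.0149) and 0.22 in arsenite (SE 0.060, adjusted p = 0.0035). The call in water was lost without water replicate 1 at 1 day (0.11, adjusted p = 0.193) and without water replicate 2 at 5 days (adjusted p = 0.057). In arsenite it was lost without arsenite replicate 2 at 5 days (0.14, adjusted p = 0.108) and without libraries 25 and 26 (adjusted p = 0.0709).

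The log2 ratio of fat-1 to fat-2 within a library lay between -0.012 and 0.082 at 1 day and between -1.59 and -1.40 at 5 days, a difference of -1.56 (exact permutation p = 0.0286, adjusted p = 0.0357). On the per-kilobase scale fat-2 made up 16.8% ± 0.389 of the sum of the 10 genes in water at 1 day and 42.1% ± 1.09 at 5 days, and 16.6% ± 0.136 and 41.1% ± 1.79 in arsenite. Without fat-2 the CPM of the other 9 genes summed to 1488 ± 2.56 in water at 1 day and 1499 ± 73.3 at 5 days. With it the sum was 1797 ± 3.53 and 2563 ± 76.8.

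The front-end desaturases FAT-3 and FAT-4 insert double bonds near the carboxyl end on the way to arachidonic and eicosapentaenoic acid. Their genes are also neighbours, fat-4 at 9799429 to 9802226 and fat-3 at 9803023 to 9806119 on the plus strand of chromosome IV, 796 bases apart. The level of fat-3 was 138 and 136 CPM in water at 1 day and 302 and 262 CPM at 5 days. The values in arsenite were 143 and 138 CPM at 1 day and 274 and 277 CPM at 5 days. The ages did not overlap. From 1 to 5 days fat-3 changed by a log2 value of 1.04 in water (SE 0.064, adjusted p = 2.0e-12), a 2.06-fold rise, and 0.97 in arsenite (SE 0.064, adjusted p = 6.6e-12).

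The later-acting gene, fat-4, lay at 214 and 233 CPM in water at 1 day and at 248 and 234 CPM at 5 days. In arsenite it lay at 221 and 224 CPM at 1 day and at 225 and 248 CPM at 5 days. The ages were only narrowly separated in each treatment. The differences of 0.11 in water (95% interval -0.020 to 0.24, adjusted p = 0.136) and 0.090 in arsenite (-0.039 to 0.22, adjusted p = 0.221) did not pass. Without libraries 25 and 26 fat-4 was called in water (0.16, adjusted p = 0.0483). Within a library the log2 ratio of fat-3 to fat-4 was -0.77 to -0.63 at 1 day and 0.16 to 0.29 at 5 days, a difference of 0.91 (exact permutation p = 0.0286, adjusted p = 0.0357).

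The 3 elongase genes fell together with TMM scaling, but on the scale of the intestine markers elo-1 and elo-2 were higher and elo-5 was not called. The median log2 fold change of all genes on that scale was 1.01 in water and 1.05 in arsenite. ELO-1 lengthens polyunsaturated fatty acids, ELO-2 lengthens palmitic acid, and ELO-5 acts in the synthesis of monomethyl branched-chain fatty acids. They lie on chromosome IV, elo-1 at 9526366 to 9528336 on the plus strand, elo-2 at 17466062 to 17467408 on the minus strand and elo-5 at 5374616 to 5377117 on the minus strand. The level of elo-1 was 305 and 286 CPM in water at 1 day and 214 and 206 CPM at 5 days, and in arsenite 311 and 285 CPM at 1 day and 194 and 204 CPM at 5 days. No 5-day library reached the level of a 1-day library. Its log2 fold change was -0.49 in water (SE 0.061, adjusted p = 3.1e-07) and -0.58 in arsenite (SE 0.061, adjusted p = 2.5e-08).

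For elo-2 the libraries held 105 and 104 CPM in water at 1 day and 55.9 and 67.1 CPM at 5 days, and in arsenite 104 and 97.9 CPM at 1 day and 56.5 and 68.9 CPM at 5 days. The ages did not overlap, and in both treatments the replicates of 5 days lay further apart than those of 1 day. From 1 to 5 days elo-2 changed by a log2 value of -0.76 in water (SE 0.096, adjusted p = 1.5e-05) and -0.69 in arsenite (SE 0.096, adjusted p = 3.5e-05). The log2 ratio of elo-2 to elo-1 was -1.57 to -1.46 at 1 day and -1.94 to -1.57 at 5 days, and the difference of -0.19 did not pass (exact permutation p = 0.0571, adjusted p = 0.0571).

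The level of elo-5 was 106 and 102 CPM in water at 1 day and 47.6 and 46.8 CPM at 5 days, and in arsenite 96.5 and 109 CPM at 1 day and 42.3 and 50.1 CPM at 5 days. Every library of 5 days lay below every library of 1 day. The log2 fold change was -1.14 in water (SE 0.079, adjusted p = 3.8e-11), a level 2.20-fold lower, and -1.15 in arsenite (SE 0.079, adjusted p = 3.3e-11). Exons of elo-5 share 162 bases with F41H10.3 on the opposite strand, a gene with 3494 to 4789 counts per library against 1034 to 2905 for elo-5. Because the strand setting of the counting is not given in the sources used here, the counts of elo-5 are uncertain to that extent. F41H10.3 itself changed by -0.17 in water and -0.19 in arsenite.

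**Figure D3:**
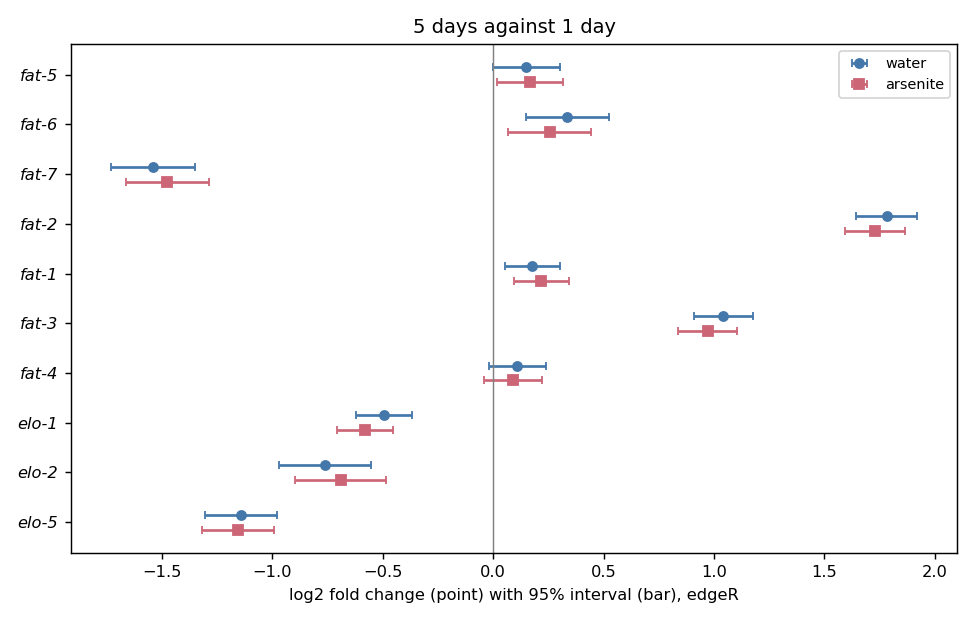
Log2 fold change from 1 to 5 days (horizontal axis) of each gene (vertical axis) in water (circles) and arsenite (squares), with 95% intervals from edgeR as bars. The values run from -1.54 for fat-7 to 1.78 for fat-2 in water, and the intervals of the 2 treatments overlap for every gene. All points are from TMM scaling. Values from libraries scaled on intestine markers, where elo-1 and elo-2 were above 0, are not drawn.

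These directions hold relative to the bulk of the messages, since TMM sets the median log2 fold change of all 14449 genes near 0 (0.0078 in water and 0.013 in arsenite). An alternative scaled the libraries on the 14 intestine markers, which moved that median to 1.01 in water and 1.05 in arsenite. The markers did not move alike. After this scaling 7 of the 14 were called higher and 6 lower in each treatment. Their values in water ran from -1.96 for nhx-2 to 3.39 for mtl-2. On that scale 76.1% of all genes were called higher and 6.55% lower in water, against 30.1% and 30% with TMM, and 76.7% and 6.52% in arsenite. Then 9 of the 10 genes were called in each treatment, with fat-4 at 1.11 and 1.13 and fat-5 at 1.15 and 1.21 in water and arsenite, near the shifted median, as was fat-1 at 1.18 and 1.26. The elongase genes elo-1 (0.51 and 0.46) and elo-2 (0.23 and 0.35) changed sign to higher, and elo-5 lost its call (-0.14 and -0.12). Relative to the shifted median all 3 elongase genes stayed below 0. The gene fat-7 was still called lower on this scale (-0.53 in water and -0.43 in arsenite), and fat-2 (2.78 and 2.77) and fat-3 (2.05 and 2.01) stood above the shifted median.

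Per kilobase of exon the order of the genes at 1 day in water was elo-1 (278 ± 13.04 CPM per kilobase), fat-2 (247 ± 4.86), fat-1 (224 ± 13.9), fat-4 (145 ± 8.63), fat-6 (129 ± 9.15), elo-5 (113 ± 3.34), elo-2 (100.4 ± 0.573), fat-3 (91.7 ± 0.694), fat-7 (74.6 ± 2.45) and fat-5 (65.5 ± 3.18). No neighbours in this order overlapped between their libraries. The order was the same in arsenite at 1 day, where elo-2 and fat-3 overlapped. At 5 days in water fat-2 led with 848 ± 2.83 CPM per kilobase, followed by fat-1 with 253 ± 2.94. Next came elo-1 (198 ± 5.61), fat-3 (189 ± 19.1), fat-6 (163 ± 22.7) and fat-4 (157 ± 6.76), whose neighbours overlapped. They were followed by fat-5 (72.7 ± 7.91), elo-2 (59.3 ± 7.65), elo-5 (51.2 ± 0.594) and fat-7 (25.7 ± 4.18), without overlap. Exon lengths came from a current annotation that may differ from the authors', which changes these levels but not the fold changes.

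**Figure D4:**
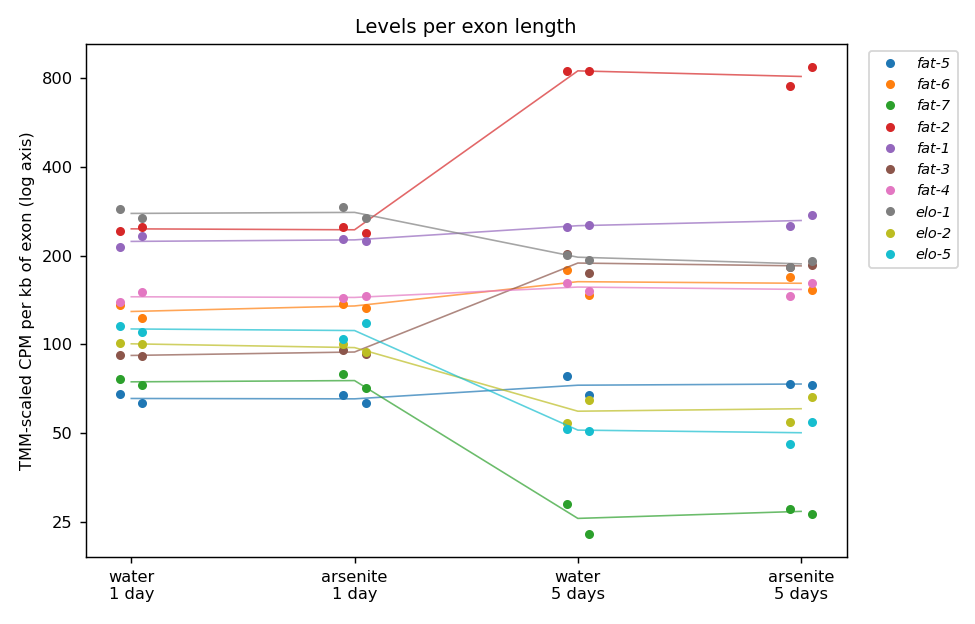
TMM-scaled CPM per kilobase of exon (vertical axis, log scale) of the 10 genes in each library (points), with lines joining the group means in the order of the groups on the horizontal axis. In water at 5 days the group means are 848 for fat-2 and 25.7 for fat-7, and from 1 day to 5 days fat-3 moves up the order while elo-1 leaves the first place.

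The comparison of arsenite with water asked whether exposure at the labelled concentration was accompanied by other levels of these messages. None of the 10 genes passed the edgeR test at 1 day (adjusted p = 1 for each), where 0% of all tested genes were called. None passed at 5 days (adjusted p = 0.999 for each), where 0.0138% of all genes were called, nor as an average over both ages (0% of all genes). No unadjusted p of these genes was under 0.05 in any of the 3 comparisons, against 238 genes at 1 day, 573 at 5 days and 412 for the average among all 14449. DESeq2 and limma voom also called none of the 10.

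At 1 day the log2 fold changes lay between -0.043 for elo-2 and 0.063 for fat-6, and the 95% intervals of the 10 genes reached from 0.844-fold to 1.19-fold. At 5 days they lay between -0.075 for elo-1 and 0.079 for fat-7, with intervals that reached from 0.867-fold to 1.21-fold. Averaged over the ages they ran from -0.037 (fat-2) to 0.047 (fat-7). The test used a shared estimate of the spread from all 8 libraries, so the spread of the 5-day libraries also enters the 1-day p-values and intervals. A p that misses the threshold does not show equal levels. The libraries of water and arsenite did not overlap for 1 of the 10 genes at 1 day, fat-3, and for 1 at 5 days, elo-1, while this was so for 28.5% and 29.5% of all tested genes.

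The change with age did not differ detectably between the treatments. The arsenite effect at 5 days minus that at 1 day lay between -0.087 for elo-1 and 0.070 for elo-2. None of the 10 passed the edgeR test (adjusted p = 0.9999 for each), where 0% of all genes were called, and none had an unadjusted p under 0.05, against 368 of all genes. For fat-2 the difference was -0.053 (95% interval -0.24 to 0.14) and for fat-7 it was 0.065 (-0.20 to 0.33).

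**Figure D5:**
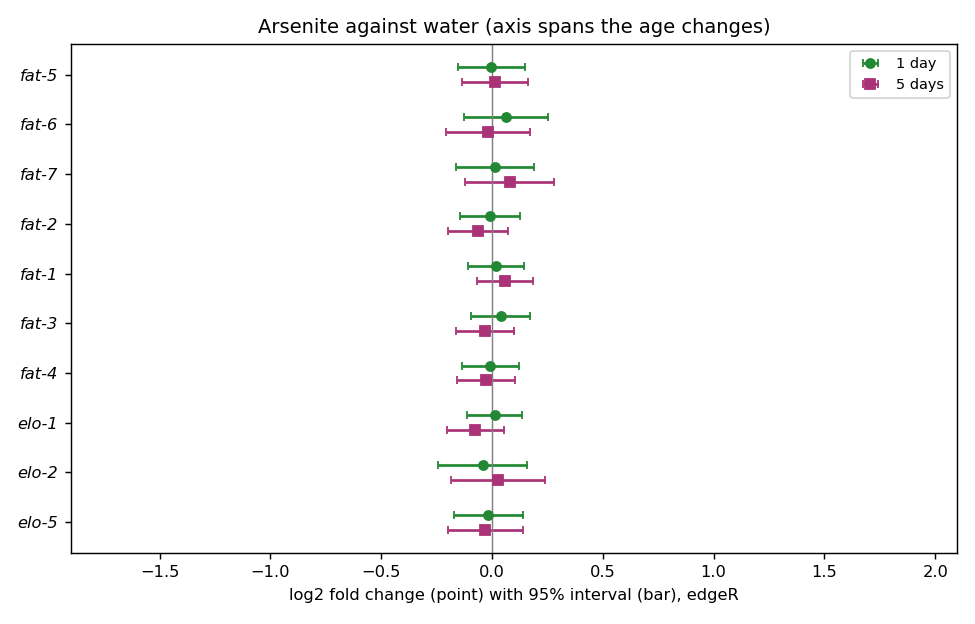
Log2 fold change of arsenite against water (horizontal axis, drawn over the span of the age changes) of each gene (vertical axis) at 1 day (circles) and 5 days (squares), with 95% intervals from edgeR as bars. All 20 values lie between -0.075 and 0.079 and every interval includes 0.

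Genes that work with these enzymes were counted from lists that were chosen with earlier results of these data known, and none of their members was called between arsenite and water at either age. Of the other elongase genes 3 of 5 tested were lower at 5 days in water and none higher. They were elo-6, which shares the branched-chain pathway with elo-5 (202 ± 5.54 CPM at 1 day and 103 ± 9.84 at 5 days, log2 fold change -0.97), elo-3 (-0.49) and elo-9 (-1.68). The gene elo-7 did not pass the filter, and elo-4 (-0.096) and elo-8 (0.097) were not called. The enzymes that complete each elongation round were also lower in 3 of 3 cases. These were let-767, a ketoacyl reductase (-0.46), hpo-8, a hydroxyacyl dehydratase (-0.28), and art-1, an enoyl reductase (-0.76). In arsenite the counts of both lists were 3 of 5 and 3 of 3 lower as well. Over all genes 30% were lower in water, with a median log2 fold change of 0.0078, against list medians of -0.49 and -0.46. On the scale of the intestine markers the counts in water were 2 higher and 1 lower of 5, with elo-6 at 0.023, and 3 of 3 higher. Over all genes 76.1% were higher and 6.55% lower on that scale. Their median was 1.01, above let-767 (0.54), hpo-8 (0.72) and art-1 (0.24).

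The genes that supply saturated fatty acids divided. The fatty acid synthase gene fasn-1 fell from 517 ± 14.9 to 324 ± 0.601 CPM in water (-0.67, adjusted p = 5.1e-10), whereas pod-2, acetyl-CoA carboxylase, rose from 540.0 ± 31.5 to 672 ± 78.5 CPM (0.32, adjusted p = 0.0021). The ATP citrate lyase gene acly-1 rose slightly (0.22, adjusted p = 0.0050), a call lost without water replicate 2 at 1 day (adjusted p = 0.0674), and acly-2 stood at 0.054 (adjusted p = 0.446). In arsenite pod-2 alone was higher and fasn-1 alone lower, 1 and 1 of 4. Among 4 electron donors of the desaturases in water, cytb-5.1, a cytochrome b5, was higher (0.33) and emb-8, a cytochrome P450 reductase, was lower (-0.35). The cytochrome b5 gene cytb-5.2 (0.15) and the reductase gene hpo-19 (-0.10) were not called. In arsenite 1 of 4 was higher and 2 were lower. Scaled on the intestine markers, 4 of 4 genes of each of these lists were higher in water, beside 76.1% of all genes. Among them fasn-1 (0.33) and emb-8 (0.65) stood below the shifted median of 1.01.

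Of 14 regulators of desaturase expression 3 were higher and 4 lower in water, and 4 and 5 in arsenite, shares near the 60.1% and 59.6% of all genes called either way. The SREBP homolog gene sbp-1, a driver of fat synthesis genes, rose from 36.1 ± 3.49 to 64.2 ± 4.55 CPM (0.83, adjusted p = 9.5e-09). The Mediator subunit gene mdt-15, a coactivator of SBP-1 and NHR-49, fell from 196 ± 2.78 to 164 ± 7.93 CPM (-0.26). The nuclear receptor genes nhr-25 (-1.22) and nhr-62 (-0.53) were lower, the second without a call when water replicate 1 at 1 day was left out (adjusted p = 0.0549). A further pair of receptor genes that control fat-5, fat-6 and fat-7 are named here after their values were seen. They are nhr-49 (0.14, adjusted p = 0.0485) and nhr-80 (0.093, adjusted p = 0.56). The call of nhr-49 was lost with DESeq2 size factors, without a filter, in DESeq2 and limma voom, without libraries 23 and 24, and on leaving out any of 7 of the 8 libraries singly (adjusted p = 0.0509 to 0.198 over these). The count of regulators called in water was 7, but 3 without water replicate 1 at 1 day and 4 without water replicate 2 at 1 day. On the scale of the intestine markers 13 of 14 were higher and none lower in water, beside 76.1% of all genes higher. The median of all genes there was 1.01, with sbp-1 above it at 1.83 and mdt-15 below it at 0.74.

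Phosphatidylcholine is a main membrane lipid that holds these fatty acids. Of its synthesis genes 7 of 9 were lower and none higher in water, and 6 of 9 were lower in arsenite. The shares of all genes lower were 30% and 29.4%, and the list medians were -0.58 in water and -0.55 in arsenite. The methyltransferase gene pmt-2 fell from 627 ± 4.23 to 136 ± 10.003 CPM (-2.20) and cept-1, a choline phosphotransferase, from 48.3 ± 2.91 to 13.3 ± 0.416 CPM (-1.87). The genes lpin-1 (-0.65) and pcyt-1 (-0.58) also fell, but were higher on the scale of the intestine markers (0.35 and 0.42). Both stood below the median of all genes on that scale, 1.01 in water. There 6 of 9 genes were higher and 3 lower, pmt-2 (-1.20) and cept-1 (-0.87) among them. Over all genes 76.1% were higher and 6.55% lower. Of 6 genes that turn polyunsaturated fatty acids into eicosanoids or break these down, 3 were lower in water, led by the cytochrome P450 gene cyp-29A3 (-1.67), with cyp-33E2 (-0.46) and cyp-42A1 (-0.43). That count was 1 to 4 when 1 library was left out, being 1 without water replicate 1 at 1 day, and also without water replicate 2 at 5 days. Scaled on the intestine markers, 5 of 6 were higher in water and cyp-29A3 alone was lower (-0.67), again beside 76.1% and 6.55% of all genes.

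The genes whose log2 CPM over the 8 libraries were most like those of 4 members were found among 8753 tested genes with a mean of at least 5 CPM. For fat-2 they were F13B12.1, Y43F8B.2 and Y69A2AR.28 (Pearson r = 0.9998, 0.9995 and 0.9993), and for fat-7 they were ugt-12, farl-11 and kmo-1 (0.9994, 0.9992 and 0.9989). Correlations above 0.99 were common for these genes, with 437 genes for fat-2 and 249 for fat-7, and the ages separate the libraries of both members widely. With the mean of each age removed, r was 0.961, 0.949 and 0.910 for the 3 genes named for fat-2 and 0.972, 0.981 and 0.950 for those named for fat-7. The named genes were picked on these same libraries, so these values are partly set by that choice. No gene passed 0.99 with fat-6, for which F45E1.4, lec-11 and R07E3.4 came nearest (0.988, 0.984 and 0.984), or with fat-5, for which dhp-1, F45E1.4 and Y37D8A.2 did (0.965, 0.961 and 0.961).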

How the data were processed

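Messenger RNA was read from 8 libraries of whole N2 hermaphrodites, made with an Illumina kit for mRNA per the labels' protocols. The authors deposited whole-number read counts per gene. The submitters' processing notes list featureCounts 1.4.6-p4, STAR 2.4.1d and CASAVA 1.7 and the build WBcel235; the sources used here name no annotation release, strand setting or treatment of multi-mapping reads. A second deposited table of RPKM values was not used, because the scale between its libraries varied from row to row. Every sample column matched a library title (0 unmatched). Of the identifiers, 43693 had a WormBase symbol in the reference table. Coordinates and merged exon lengths came from an Ensembl annotation of WBcel235.

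The counts went into edgeR 4.0.16 under R 4.3.3: filterByExpr by group (minimum count 10, minimum total 15), TMM scaling, and a robust quasi-likelihood test over 4 group means of all 8 libraries, adjusted by Benjamini-Hochberg over the 14449 genes kept. The common coefficient of variation was 5.88%. Scripts were tested on simulated data. DESeq2 1.42.0, limma 3.58.1 (voom), no filter, DESeq2 size factors, size factors from intestine markers, each library left out, a term for neighbouring library numbers, and fits by age were alternatives. Leaving out libraries 23 and 24, or 25 and 26, was added after seeing the data. CPM are TMM-scaled; intervals are 95% intervals. Ratios were tested by exact permutation in Python 3.11.15 with numpy 2.4.6. Named were all 10 members, up to 4 genes of each list with the smallest p for age in water, and for 4 members the 3 most correlated genes (2 CPM prior count). Members and lists were chosen with earlier results of these data known.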

Additional observations from a re-analysis of the deposited data

How the results depend on the processing

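No paired analysis was possible because the labels give no replicate numbers and name no pairs; a fit blocked on neighbouring library numbers in the titles, which no label calls pairs, was run as an alternative. The count of called members stayed within 1.5 times its value in each comparison and setting: 0 in every arsenite comparison, 7 to 10 in water and 7 to 9 in arsenite for age. All genes called between arsenite and water at 5 days numbered 2, and 0 to 22 under the alternatives (14 without a filter, 22 with neighbouring library numbers as a term). With that term fat-5 was called for age (adjusted p = 0.0354 in water and 0.0178 in arsenite). Among all genes 0 were called at 1 day and 0 to 2 under the alternatives, 0 and 0 to 7 for the average, and 0 and 0 to 2 for the difference. The cause was not tested. The difference in the log2 ratio of fat-7 to fat-6 was -1.88 in water and -1.73 in arsenite libraries alone. Scaling on intestine markers reversed elo-1 (0.51 and 0.46) and elo-2 (0.23 and 0.35) for age in water and arsenite. The eicosanoid count of 3 in water fell to 1 under DESeq2 and without libraries 25 and 26, that of 3 in arsenite to 1 under DESeq2, without libraries 23 and 24 and without any of 5 single libraries. Called neuron markers in water numbered 6, and 3 under DESeq2. Regulators called in arsenite numbered 9, and 5 without arsenite replicate 2 at 1 day.

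The arsenite values near 0 changed sign often. Leaving out 1 library at a time gave log2 fold changes at 1 day of -0.046 to 0.081 for fat-1, -0.046 to 0.022 for fat-2, -0.068 to 0.054 for fat-4, -0.054 to 0.045 for fat-5 (0.000193 without a filter), -0.0091 to 0.14 for fat-6, -0.069 to 0.091 for fat-7, -0.056 to 0.074 for elo-1, -0.092 to 0.0030 for elo-2 and -0.11 to 0.065 for elo-5. At 5 days the ranges were -0.013 to 0.11 for fat-1, -0.19 to 0.035 for fat-2, -0.14 to 0.067 for fat-3, -0.11 to 0.038 for fat-4, -0.10 to 0.12 for fat-5, -0.16 to 0.12 for fat-6, -0.086 to 0.25 for fat-7, -0.13 to 0.16 for elo-2 and -0.17 to 0.083 for elo-5. Without libraries 23 and 24 the values at 5 days turned to 0.038 for fat-2, 0.077 for fat-3, 0.082 for fat-4, 0.052 for fat-6 and 0.095 for elo-5. Without libraries 25 and 26 they turned to -0.0018 for fat-1, -0.10 for fat-5 and -0.058 for fat-7. The uncalled age values in water of elo-4 (-0.47 to 0.46) and acly-2 (-0.0090 to 0.11 on leaving out 1 library, -0.0061 without libraries 23 and 24) also crossed 0. With 2 libraries a group, the 95% intervals set the precision of each value.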

Other observations

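The genes for the first desaturation step, fat-5, fat-6 and fat-7, each had the higher CPM in the lower-numbered library of every group, 4 of 4 groups, a pattern noticed after the values were seen. The other 7 desaturase and elongase genes did so in 1 to 3 groups. Of all 14449 tested genes, 1073 (7.43%) were higher in the lower-numbered library of all 4 groups. With the mean of each age removed, Pearson r over the 8 libraries was 0.87 between fat-5 and fat-6. It was 0.94 between fat-5 and fat-7 and 0.83 between fat-6 and fat-7. These 3 genes were singled out for moving alike between libraries, so their r is partly set by that choice. The gene fat-3 reached 0.87, 0.82 and 0.81 with fat-5, fat-6 and fat-7, so such values were not particular to the 3. Among all pairs of these desaturase and elongase genes this r ran from -0.78 (fat-6 with elo-2) to 0.94 (fat-5 with fat-7). Each library's depth and scaling factor enter all of these genes alike, and their part in the pattern was not tested.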
